A study of Mus musculus with 12 samples.

Results

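The Hox cluster genes were followed across 6 lines of mouse colon intestinal subepithelial myofibroblasts (ISEMF), the contractile stromal cells that lie under the gut epithelium. Members were all array probes whose platform symbol is Hoxa, Hoxb, Hoxc or Hoxd followed by a number. These were 57 probes of 38 genes, of 45281 probes and 19057 genes with a probe named here. A gene was tested when a probe of it was detected on at least 3 of the 12 arrays, which 26 Hox genes and 11060 genes in all passed.

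The study profiled 3 lines null for miR-143/145 (KO4, KO10 and KO15) and 3 wild-type lines (WT5, WT7 and WT13) on Illumina bead arrays. The 4 groups of 3 arrays were KO lines with lipopolysaccharide (LPS), a bacterial cell wall component, at 1 ug/mL for 24 h, the same KO lines untreated, WT lines with LPS and the same WT lines untreated. All lines were grown in DMEM with serum, insulin, transferrin and epidermal growth factor. The labels give neither the stretch of colon a line was taken from nor the animal behind each line. The p-values speak only of the spread seen among lines within groups, which the main comparisons of genotype and LPS pooled over all 4 groups. Each line entered those fits with both its arrays, taken as independent. Where a fit held line as a fixed term, the spread was that between a line's arrays. Either spread may be technical.

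Hox genes encode homeodomain transcription factors that lie in 4 clusters, on mouse chromosomes 6 (HoxA), 11 (HoxB), 15 (HoxC) and 2 (HoxD). Their order along a cluster follows the order in which they are expressed along the body axis, with low numbers anterior and high numbers posterior. In the gut it is chiefly the mesenchyme that carries this positional code, adult fibroblasts keep much of it in culture, and Hoxa13 and Hoxd13 are needed to form the hindgut and the anal region.

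The promoters of 5 HoxD genes are shown because 4 of them (Hoxd4, Hoxd8, Hoxd9 and Hoxd10) had values that moved together across the lines, while Hoxd13, at the posterior end of the same cluster, did not follow them. Each runs from 250 bases before to 50 bases after the annotated start (RefSeq, GRCm38.p6), 5′ to 3′, with capitals for matches on either strand to the TATA box TATAAA, to the CCAAT box, to the GC box core GGGCGG or to TGATTNAT, a composite Pbx and Hox motif, where adjoining matches can overlap.
Hoxd4 (chr2:74721728-74722027, plus strand): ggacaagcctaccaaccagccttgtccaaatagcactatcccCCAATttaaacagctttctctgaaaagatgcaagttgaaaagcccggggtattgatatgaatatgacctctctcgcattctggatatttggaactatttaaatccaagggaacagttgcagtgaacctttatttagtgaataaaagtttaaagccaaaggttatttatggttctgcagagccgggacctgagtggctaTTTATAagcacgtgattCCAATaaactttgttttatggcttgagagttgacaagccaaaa
Hoxd8 (chr2:74704365-74704664, plus strand): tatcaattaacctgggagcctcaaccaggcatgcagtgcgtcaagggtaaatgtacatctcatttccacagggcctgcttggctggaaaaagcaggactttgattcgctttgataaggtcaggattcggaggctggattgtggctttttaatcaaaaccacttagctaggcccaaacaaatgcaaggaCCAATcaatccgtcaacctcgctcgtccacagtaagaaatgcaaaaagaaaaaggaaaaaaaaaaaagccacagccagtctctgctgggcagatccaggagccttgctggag
Hoxd9 (chr2:74697513-74697812, plus strand): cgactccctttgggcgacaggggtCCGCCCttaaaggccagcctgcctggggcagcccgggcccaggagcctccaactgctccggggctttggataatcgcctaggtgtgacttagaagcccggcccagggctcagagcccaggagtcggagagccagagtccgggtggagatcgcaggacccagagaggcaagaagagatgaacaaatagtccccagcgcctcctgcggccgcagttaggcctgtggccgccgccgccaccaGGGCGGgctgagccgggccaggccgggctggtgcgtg
Hoxd10 (chr2:74691641-74691940, plus strand): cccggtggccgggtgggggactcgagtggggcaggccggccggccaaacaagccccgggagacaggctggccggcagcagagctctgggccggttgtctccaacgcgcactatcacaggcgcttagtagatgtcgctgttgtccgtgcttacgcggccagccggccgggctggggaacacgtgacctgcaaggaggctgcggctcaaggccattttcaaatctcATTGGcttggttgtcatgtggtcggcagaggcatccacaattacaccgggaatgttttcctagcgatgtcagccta
Hoxd13 (chr2:74667975-74668274, plus strand): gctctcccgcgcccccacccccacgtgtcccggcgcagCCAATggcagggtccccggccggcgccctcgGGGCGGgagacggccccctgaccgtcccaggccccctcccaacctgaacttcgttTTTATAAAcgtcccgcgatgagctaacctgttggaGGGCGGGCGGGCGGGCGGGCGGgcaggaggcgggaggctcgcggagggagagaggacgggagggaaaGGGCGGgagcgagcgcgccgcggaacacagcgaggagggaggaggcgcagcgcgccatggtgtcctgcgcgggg

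The RefSeq table held 24 promoters of 22 of the 38 genes. The CCAAT box was found in 15 of the 24 (62.5%), against 37.4% of all 32851 promoters of that length. GGGCGG was found in 10 (41.7%, against 35.7%), TATAAA in 4 (16.7%, against 13.6%) and TGATTNAT in 2 (8.33%, against 3.22%). The Hoxd13 promoter held 37 CpG dinucleotides and 7 overlapping or single matches to GGGCGG, the Hoxd10 promoter 22 CpGs, the Hoxd9 promoter 20, the Hoxd8 promoter 6 and the Hoxd4 promoter 4, against a median of 7 over all promoters and 14.5 over the 24 Hox promoters. None of these 5 held TGATTNAT, which says only that those letters are not in these windows.

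The clusters also carry microRNAs, which these arrays did not report. miR-10b lies within the annotated span of Hoxd4 and miR-10a within that of Hoxb3, both of which were detected here, and their mature 5p strands are shown because they share a seed (bases 2 to 8, in capitals; RefSeq, GRCm38.p6).
miR-10b-5p (chr2:74726074-74726096, plus strand): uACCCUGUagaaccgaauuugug
miR-10a-5p (chr11:96317186-96317208, plus strand): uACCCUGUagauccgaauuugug

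Arrays were of like depth, with 42.5% to 44.7% of probes detected and a median raw signal of 115.5 to 136.1, the highest on the WT13 LPS array. The number of arrays limits the precision. The LPS arrays shared a slide of their own and the untreated arrays another, so treatment and slide cannot be told apart. On each slide KO lines took places D to F and WT lines A to C, and genotype, line and place on the slide cannot be told apart. KO10 and WT13 lacked Xist (4.34 to 4.42 on the log2 signal scale) and had high Eif2s3y, a Y-linked gene (8.57 to 9.63), while the other 4 lines showed the reverse, so the lines were of mixed sex. Of the cell type markers, all 6 of the fibroblast list and 5 of the 6 of the myofibroblast and smooth muscle list were detected on all 12 arrays, and Cnn1, the sixth, on 5. Ptprc and Itgam (leukocytes), Epcam and Vil1 (epithelium), Pecam1 (endothelium) and S100b, Gfap and Elavl4 (glia and neurons) were detected on no array. Other members of the same lists were detected. Cd14, Csf1r and Lyz2 (leukocytes), Krt8, Krt18 and Krt20 (epithelium) and Sox10 (glia) were detected on all 12 arrays. Cdh1 (epithelium) was detected on 9, and Tek, Emcn, Kdr and Cdh5 (endothelium) on 11, 11, 10 and 3.

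Detected Hox genes lay along each cluster rather than at a single end of it. The share of them detected on all arrays was near that of all genes. A gene was called detected on an array when the scanner's detection p-value of any of its probes was under 0.05. By that call 20 of the 38 genes were detected on all 12 arrays (52.6%), 11 on some arrays and 7 on none (18.4%). Among all genes 47.8% were detected on all 12 and 35.7% on none. At a detection p under 0.01, 19 Hox genes were detected on all 12 arrays and 12 on none. A single array had 23 to 28 Hox genes detected. A probe below detection shows only that the signal was not above background, and in bulk RNA fewer cells of a type and less RNA per cell cannot be told apart.

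In HoxA, Hoxa4, Hoxa5 (lung and gut patterning), Hoxa7, Hoxa9 (a blood progenitor factor), Hoxa11 (kidney, forearm and uterine stroma) and Hoxa13 (distal limb and hindgut) were detected on all 12 arrays, and every HoxA member was detected on at least 1 array. Hoxa10, a uterine patterning gene, was detected on 10, Hoxa2, a second pharyngeal arch gene, on 7, Hoxa6 on 2 and Hoxa3, a thymus and parathyroid gene, on 1. At a detection p under 0.01 Hoxa10 was detected on 2 arrays, Hoxa6 on 1, and Hoxa2 and Hoxa3 on none. The Hoxa13 call came from 1 of its 3 probes, and the other 2 were detected on no array.

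In HoxB each gene was detected on every array or on none by this call. Hoxb2, Hoxb3, Hoxb4, Hoxb5, Hoxb6, Hoxb7 and Hoxb9 were each detected on all 12 arrays, and Hoxb1 (hindbrain), Hoxb8 and Hoxb13 (prostate and tail) on none. At a detection p under 0.01 Hoxb3 was detected on 8 arrays and the calls of the other HoxB genes were the same. Hoxb8 lies between detected genes, and its only probe stayed below detection throughout.

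In HoxC, Hoxc6 and Hoxc9, which pattern the thorax, and Hoxc10, a hindlimb-level gene, were detected on all 12 arrays. Hoxc13, a hair follicle gene, was detected on 7, Hoxc4 and Hoxc8 on 2 each, and Hoxc5, Hoxc11 and Hoxc12 on none.

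In HoxD, Hoxd4 (neck vertebrae), Hoxd8, Hoxd9 and Hoxd10 (the last a gene of lumbar motor neurons) were detected on all 12 arrays. Hoxd3, which patterns the first neck vertebrae, was detected on 10, Hoxd13 on 7, Hoxd11 (forearm) on 6, Hoxd12 on 1 and Hoxd1 (nociceptive neurons) on none. Detection of Hoxd13 varied by group: it was called on 0 of 3 KO LPS arrays, 2 of 3 untreated KO arrays, 2 of 3 WT LPS arrays and 3 of 3 untreated WT arrays. Hoxc13 was detected on 2 KO LPS arrays, 2 untreated KO arrays, 0 WT LPS arrays and 3 untreated WT arrays, and Hoxa2 on 0 KO LPS arrays, 3 untreated KO arrays, 2 WT LPS arrays and 2 untreated WT arrays.

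**Figure D1:**
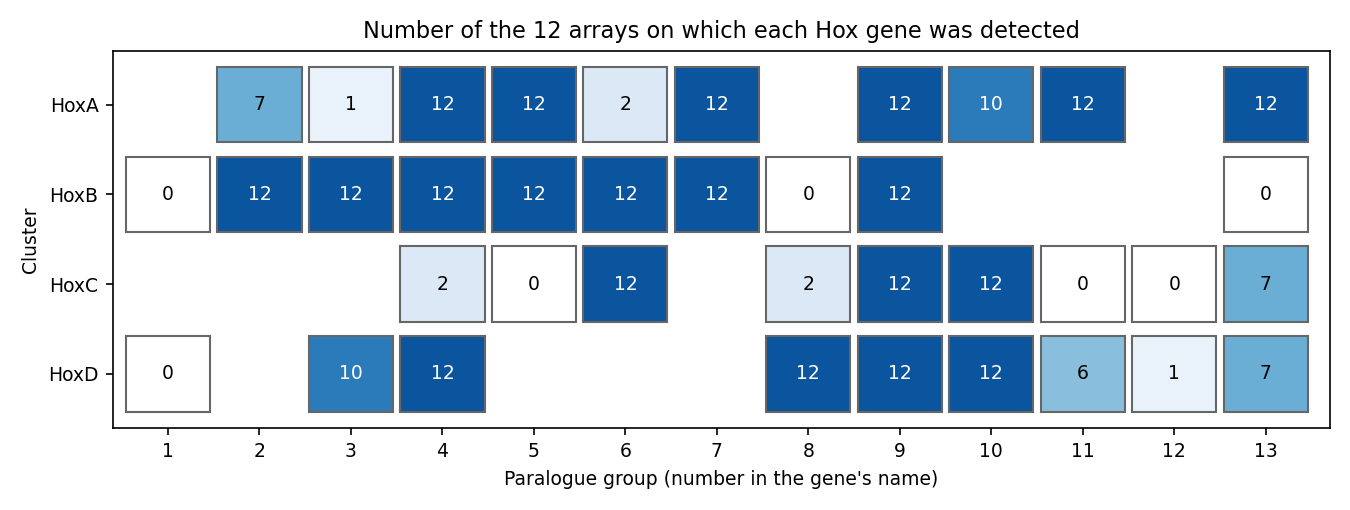
Number of the 12 arrays (figure in each box and depth of blue) on which a probe of each Hox gene was detected, with clusters in rows and the gene's number on the horizontal axis; blank places hold no member. HoxB has only boxes of 12 and 0, while HoxA, HoxC and HoxD also have boxes between.

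Lines of one genotype differed from each other in Hox genes, and the genes that passed the test were in HoxC and HoxD. Values below are normalised log2 signals of the brightest detected probe of a gene, given for KO4, KO10 and KO15 and then WT5, WT7 and WT13. A moderated F test on 4 degrees of freedom asked whether lines within a genotype differed beyond the spread between the 2 arrays of a line. It called 3 of the 26 Hox genes tested at a Benjamini-Hochberg adjusted p under 0.05 in limma (11.5%), against 1.56% of all genes tested. At an unadjusted p under 0.05 there were 14 of 26 (53.8%), against 13.4% of all genes, and the 14 held 7 of 7 HoxD, 4 of 4 HoxC, 2 of 7 HoxB and 1 of 8 HoxA genes tested.

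Hoxc6 had the smallest p. With LPS it was 6.18, 7.35 and 7.37 in KO lines and 7.66, 7.74 and 7.46 in WT lines. Untreated it was 6.22, 7.47 and 7.28 in KO lines and 7.55, 7.84 and 7.38 in WT lines. KO4 was low on both its arrays, and the other 5 lines lay close together. KO4 and KO10 differed by 2.31-fold in their line means, or 1.56-fold with no background correction (F = 37.2, adjusted p = 0.00553 in limma), and with KO4 left out the F was 2.89 (adjusted p = 0.638).

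Hoxc9 with LPS was 5.87, 6.91 and 5.90 in KO lines and 6.72, 6.82 and 6.20 in WT lines. Untreated it was 5.87, 6.78 and 6.11 in KO lines and 6.46, 6.62 and 6.35 in WT lines. Here KO10 stood above both other KO lines in both treatments (F = 17.3, adjusted p = 0.0301 in limma). The call was lost without any 1 of the 3 KO lines (adjusted p = 0.142 without KO4, 0.448 without KO10 and 0.0552 without KO15), where F was 13.4, 3.75 and 19.4. It was also lost with no background correction (0.0535), with the authors' processed values (0.0532) and with no detection filter (0.0615). For Hoxc10 the tested probe gave F = 4.17 (adjusted p = 0.326), while its other probe, also detected on all 12 arrays, gave F = 24.8 (adjusted p = 0.0126). That other probe of Hoxc10 read 5.30, 6.48 and 5.63 in KO lines with LPS and 5.34, 6.24 and 5.63 in untreated KO lines, with KO10 the highest.

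Hoxd4 with LPS was 6.19, 7.29 and 6.61 in KO lines and 6.56, 6.25 and 6.18 in WT lines. Untreated it was 6.26, 7.55 and 6.73 in KO lines and 6.87, 6.55 and 5.75 in WT lines. KO10 was highest and KO4 lowest of the KO lines on both slides, 2.29-fold apart in their line means, or 1.55-fold with no background correction (F = 15.7, adjusted p = 0.0371 in limma). The call was lost without KO4 (adjusted p = 0.196), KO10 (0.268) or KO15 (0.0638), and with no detection filter (0.0911).

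Other HoxD genes from Hoxd3 to Hoxd10 had the same order of KO lines without passing the adjusted threshold. Hoxd10 with LPS was 8.72, 9.5 and 9.2 in KO lines and 8.99, 8.72 and 8.71 in WT lines. Untreated it was 9.27, 10.07 and 9.71 in KO lines and 9.40, 9.39 and 8.85 in WT lines (F = 11, adjusted p = 0.0765). Hoxd9 with LPS was 6.74, 7.58 and 7.30 in KO lines and 7.48, 6.88 and 7.19 in WT lines. So Hoxd9, like Hoxd10, was highest in KO10 and lowest in KO4 among KO lines, and highest in WT5 among WT lines. Untreated, Hoxd9 was 7.03, 7.96 and 7.68 in KO lines and 7.49, 7.37 and 7.15 in WT lines (F = 12.2, adjusted p = 0.0635), and its other probe gave F = 22.5 (adjusted p = 0.0158). Hoxd8 gave F = 9.49 (adjusted p = 0.104) and Hoxd3 F = 13.1 (adjusted p = 0.055), with KO10 1.49-fold and 1.86-fold above KO4 in their line means, or 1.35-fold and 1.21-fold with no background correction. Hoxd3 in KO4 lay at the limit of detection, at 4.86 with LPS and 4.91 untreated. The lowest signals called detected on those arrays were 4.92 and 4.90.

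All 5 genes Hoxd3, Hoxd4, Hoxd8, Hoxd9 and Hoxd10 had the order KO10 above KO15 above KO4 both with LPS and untreated, an order that 4.94% of all genes tested had in both treatments. WT5 was the highest of the WT lines for each of the 5 in both treatments. Hoxd11 and Hoxd13 departed from this: Hoxd11 was lowest in KO10, at 4.44 with LPS and 4.60 untreated, where it was not detected, and highest in KO15, at 5.35 with LPS and 5.13 untreated. Over the 6 line means, centred within genotype, the 10 pairs among the 5 genes had Pearson correlations of 0.791 to 0.993, with a median of 0.9, and the 5 pairs of Hoxd11 with them ran between -0.9 and -0.528. These correlations describe 6 lines whose values share arrays, slides and positions, and the 5 genes were grouped after their values were seen. The Hoxd11 values lay near background: its tested probe was detected on 6 arrays and its other probe on 0. Over all 21 pairs of HoxD genes tested the median was 0.394. It was -0.0668 over 28 HoxA pairs, 0.247 over 21 HoxB pairs, 0.162 over 6 HoxC pairs and -0.0319 over 249 pairs from different clusters.

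**Figure D2:**
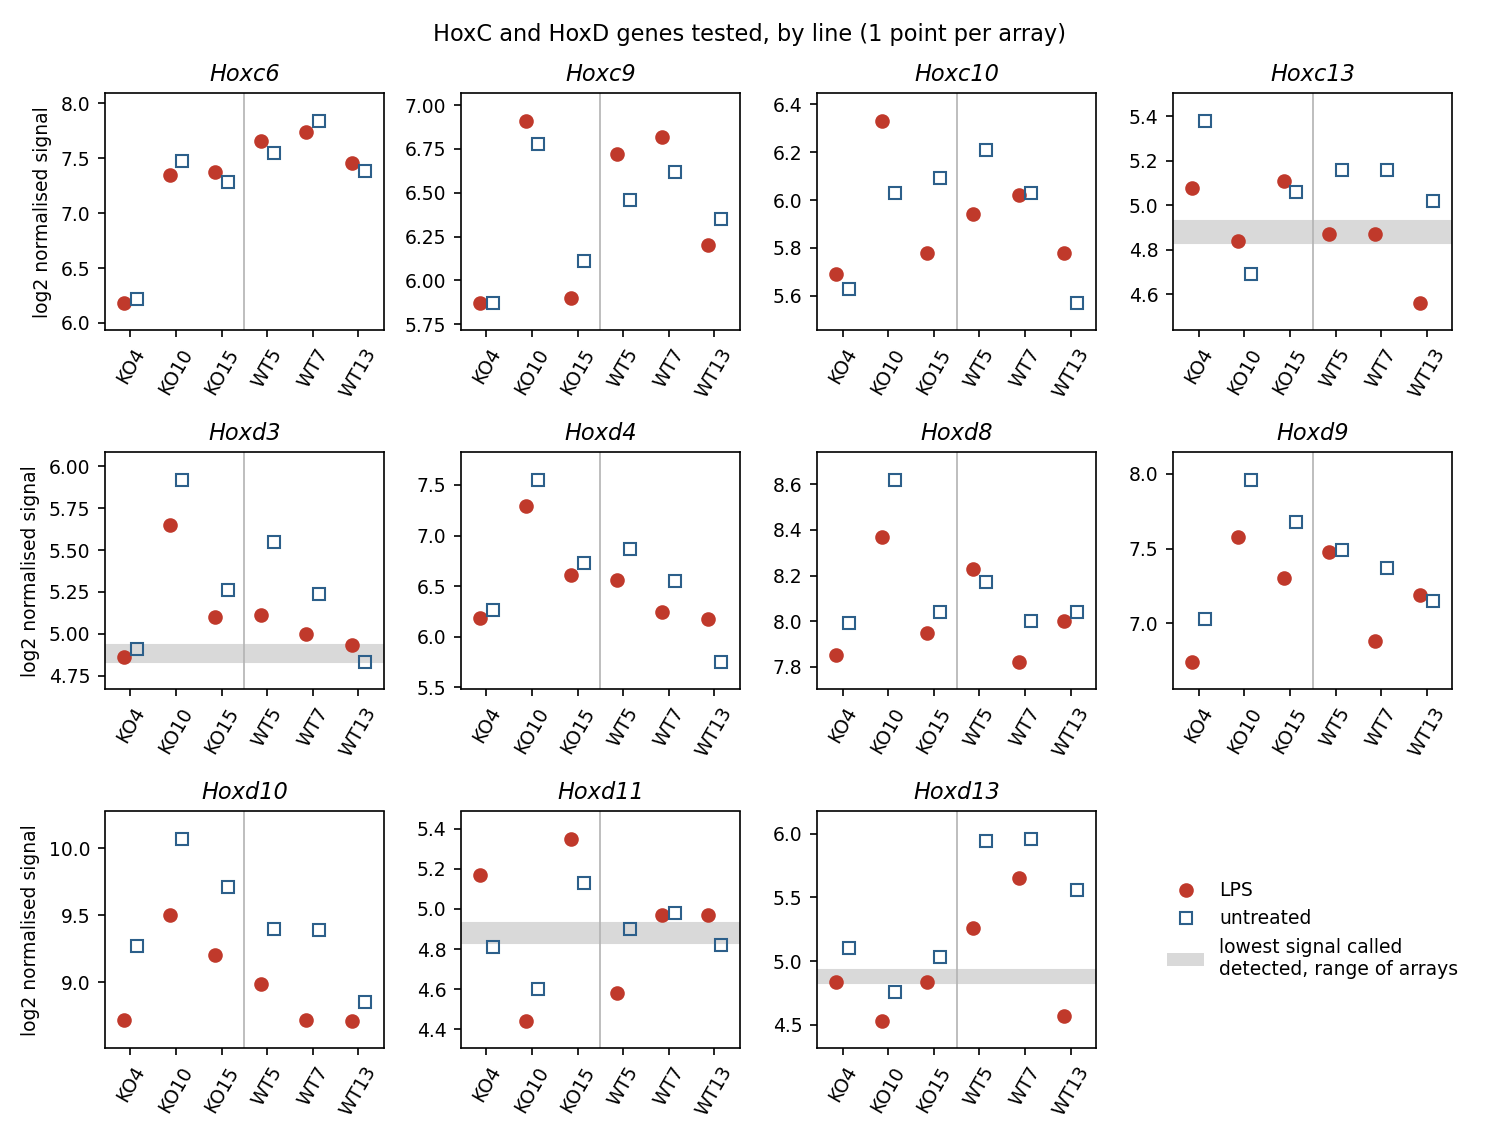
Normalised log2 signal of the HoxC and HoxD genes tested in each line, with LPS (filled circles) to the left of untreated (open squares), and, for genes detected on only some arrays, a grey band for the lowest signal called detected on an array. Hoxc6 is low on both KO4 arrays, and Hoxd3 to Hoxd10 are highest in KO10 and lowest in KO4 among the KO lines.

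Leaving out KO4 or KO10 gave fewer Hox genes at an unadjusted p under 0.05. Without KO4 there were 9 of 26 (34.6%, background 8.98%), 8 of them among the 14, and none was called. Without KO10 there were 7 (26.9%, background 11.5%), all among the 14, with 1 called, Hoxc6. HoxD genes made up 6 of the 9 and 5 of the 7. Leaving out KO15 or any 1 WT line gave 14 to 16. Without the WT13 line 6 Hox genes were called, and without only its LPS array 5.

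In HoxA, Hoxa5 (F = 11.3, adjusted p = 0.0737) was the gene with an unadjusted p under 0.05, and it read 7.79, 8.12 and 8.29 in KO lines and 8.24, 8.48 and 7.85 in WT lines with LPS. WT13 was the lowest WT line for Hoxa5, also untreated, at 8.05.

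**Figure D3:**
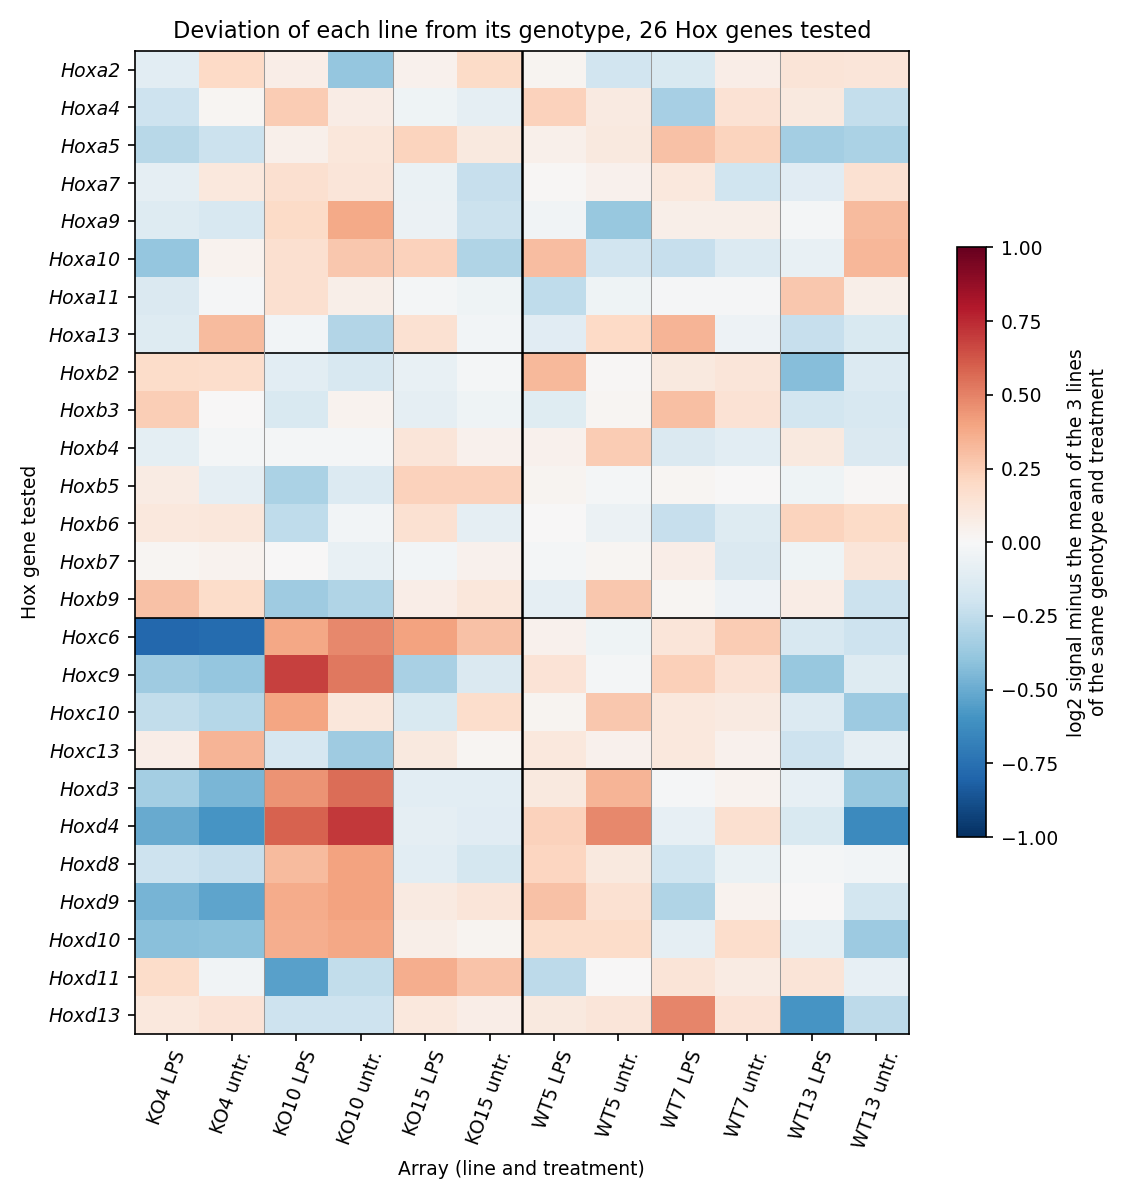
Log2 signal of the 26 Hox genes tested on each array minus the mean of the 3 lines of the same genotype and treatment (red above, blue below), with the LPS array left of the untreated array of each line and KO lines left of WT lines. Strong colours are in the HoxC and HoxD rows of KO4 and KO10, and the strongest of these have the same sign on both arrays of the line. WT13 is also strongly blue for Hoxd4 untreated and for Hoxd13 with LPS, and paler for each in the other treatment.

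Some markers of other cells also differed among lines, not all in the same order. Lyz2, a lysozyme of macrophages, had line means of 8.76, 10.82 and 9.74 in KO4, KO10 and KO15 (adjusted p = 0.000952) and Cd14, the LPS co-receptor, 7.23, 8.78 and 8 (adjusted p = 0.0087), so both had the order KO10 above KO15 above KO4. The summed signal of the tested leukocyte markers was 597 to 689 in KO4, 2130 to 2850 in KO10, 1100 to 1370 in KO15, 1820 to 2360 in WT5, 1320 to 1470 in WT7 and 1460 to 1770 in WT13. The sum is of unlogged signals and came mostly from Lyz2 and Cd14, so it largely restates these genes. Csf1r, also tested, was not called among lines. Of the 5 leukocyte markers with a probe 3 were detected on all 12 arrays (Cd14, Csf1r and Lyz2), and Ptprc and Itgam on none. Krt8 and Krt18 (keratins), Upk3b (mesothelium) and Des (desmin, of the myofibroblast and smooth muscle list) also differed among lines, at adjusted p-values of 0.00856 to 0.016 in limma. Line means of Krt8, Upk3b and Des ranged over 0.13, 0.28 and 0.47 in KO lines. In WT lines they ranged over 1.61, 2 and 1.1. Krt18 ranged over 0.86 in KO lines and 1.14 in WT lines. Krt8 and Upk3b were lowest in WT13, at line means of 6.02 and 5.60. KO10 and WT13 were also the lines with Y-linked expression. The part of these cells, of sex and of position in the Hox differences was not tested.

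The genes most like Hoxc6 over the 6 centred line means were Etnk1, an ethanolamine kinase (Pearson r = 0.998), Slco4a1, a transporter (0.996), and Trp53inp2, the chemokine Ccl2 and Rgs17 (0.995 each). With 6 lines and all 11060 genes searched, these values describe likeness only.

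The comparison of KO with WT lines asks whether loss of the microRNAs goes with another Hox pattern. No Hox gene passed the adjusted threshold in untreated cells (limma; background 0.181%), with LPS (background 0.325%) or in the line means over both treatments (background 0.127%). At an unadjusted p under 0.05 there was 1 of 26 in untreated cells, Hoxd13, against 9.11% of all genes, and 1 with LPS, Hoxb4, against 10.8%. In the line means there were 2 of 26, Hoxa11 and Hoxd13, against 10.3%. The median difference of the 26 genes was 0.03 in untreated cells and 0.05 with LPS on the log2 scale, against 0 and 0.01 over all genes tested.

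Hoxd13, the most posterior HoxD gene, had the largest difference of the 26 in untreated cells. Untreated it was 5.10, 4.76 and 5.03 in KO lines and 5.94, 5.96 and 5.56 in WT lines. Every untreated KO line was below every untreated WT line, a log2 difference of -0.86 (SE 0.22, 1.82-fold lower), but the adjusted p was 0.187 in limma and 0.0603 to 0.527 over 13 other settings, where the difference itself ran between -0.99 and -0.26 (the last with no background correction). With LPS Hoxd13 was 4.84, 4.53 and 4.84 in KO lines, where it was not well above background, and 5.26, 5.65 and 4.57 in WT lines. The groups overlapped through WT13, which was also below detection. The mean of Hoxd13 was at least 1.19-fold lower in KO lines with LPS, a difference that was not called (adjusted p = 0.525 in limma). A 3 against 3 comparison of lines by exact permutation could not go below a two-sided p of 0.1.

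Few Hox genes had KO and WT lines that did not overlap. In untreated cells they were Hoxd13 and Hoxa11, 2 of 26, against 18.7% of all genes. Hoxa11 averaged 6.57 ± 0.05 in KO lines and 6.35 ± 0.05 in WT lines (SD, n = 3 each; adjusted p = 0.695). With LPS they were Hoxb7, higher in KO lines by 0.11 at its tested probe, and Hoxc6, lower by 0.65 on the log2 scale (adjusted p = 0.514), 2 of 26 against 13.2%. At the other Hoxb7 probe KO lines read 9.94, 9.73 and 9.94 and WT lines 9.98, 9.93 and 10.50 with LPS, and these overlapped. In the line means 3 genes of 26 (11.5%) did not overlap (Hoxa7, Hoxc6 and Hoxd13, all lower in KO lines), against 16.1% of all genes in either direction and 7.67% lower. The gap was very small for Hoxc6 (KO10 7.41, WT13 7.42) and Hoxa7 (KO10 8.87, WT7 8.88). For Hoxc6 only KO4, at 6.20, lay far below the WT lines. Of 4 endothelial markers tested 1 was called between genotypes, Emcn, with log2 differences of -0.80 untreated (adjusted p = 0.035) and -0.74 with LPS (adjusted p = 0.0447), and with no background correction it was not called (adjusted p = 0.0516 and 0.142). The others, Cdh5, Kdr and Tek, had 0.06 to 0.09 untreated and -0.21 to 0.15 with LPS, and their part in the Hox values was not tested.

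**Figure D4:**
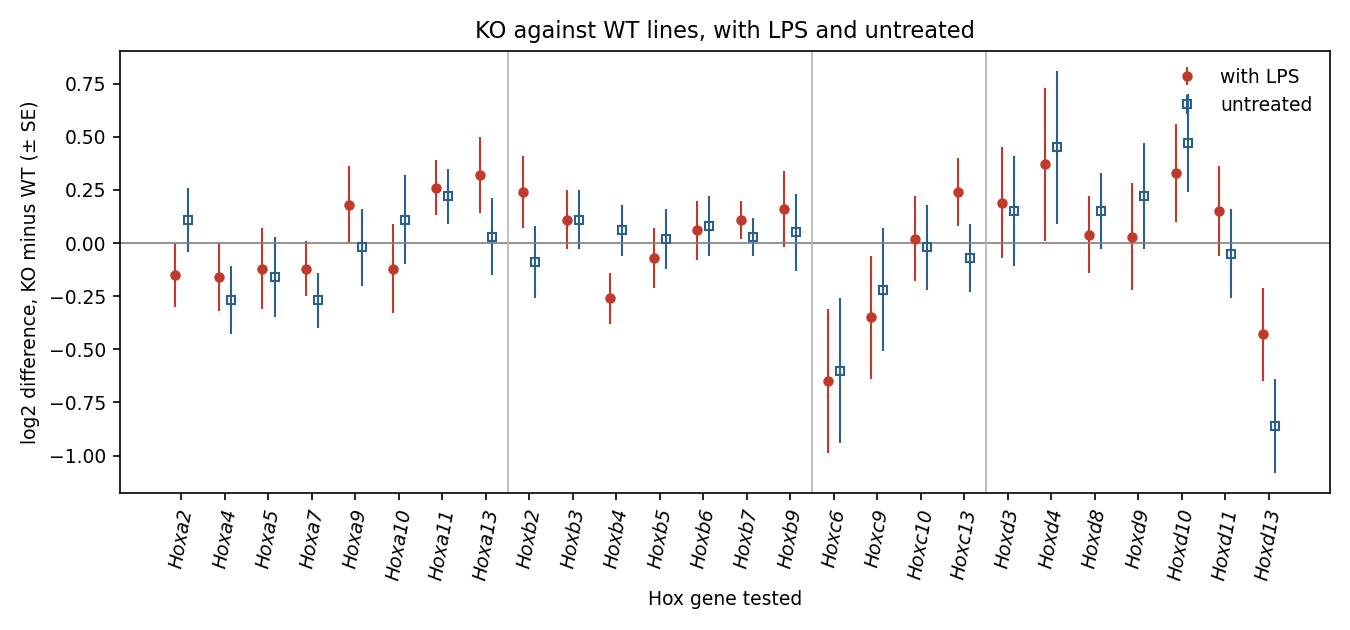
Log2 difference between KO and WT lines (± SE) for the 26 Hox genes tested, with LPS (filled circles) and untreated (open squares). Differences lie around 0, and the lowest are Hoxd13 untreated (-0.86) and Hoxc6 with LPS (-0.65).

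With LPS Hoxa11 changed in both genotypes, and Hoxb2 and Hoxb4 in WT lines. In WT lines 3 of the 26 Hox genes tested were called (11.5%), against 22.8% of all genes, and in KO lines 1 of 26 (3.85%), against 14.7%. The LPS and untreated arrays were on different slides, and smooth muscle markers moved with LPS too: the summed signal of the 6 myofibroblast and smooth muscle markers was 51500 to 55300 with LPS and 60000 to 62400 untreated in KO lines, and 53400 to 56500 with LPS and 63600 to 66000 untreated in WT lines. Their part was not tested.

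Hoxa11 rose in both genotypes. It was 7.01, 7.32 and 7.14 with LPS and 6.56, 6.63 and 6.53 untreated in KO lines, and 6.64, 6.88 and 7.16 with LPS and 6.31, 6.34 and 6.41 untreated in WT lines. The LPS and untreated values did not overlap in either genotype, and the rise was 0.58 in KO lines (SE 0.13, 1.5-fold, adjusted p = 0.0102) and 0.54 in WT lines (SE 0.13, 1.45-fold, adjusted p = 0.0105) on the log2 scale. With no background correction, or with the authors' processed values, it was 0.32 in KO lines and 0.27 in WT lines, and both stayed called. Without KO10 or KO15 the adjusted p in KO lines was 0.0974 or 0.0799, and without WT7 or WT13 that in WT lines was 0.0505 or 0.055.

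Hoxb4, a blood stem cell factor, was 8.62, 8.70 and 8.84 with LPS and 8.55, 8.55 and 8.62 untreated in KO lines. In WT lines it was 9.03, 8.84 and 9.08 with LPS and 8.77, 8.41 and 8.37 untreated. It rose in WT lines by 0.47 (SE 0.12, adjusted p = 0.0143), and the difference in KO lines was 0.15. Without WT13 the adjusted p was 0.133, and with only the arrays compared it was 0.0533.

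Hoxb2, a hindbrain patterning gene, was 9.22, 8.93 and 8.96 with LPS and 9.51, 9.18 and 9.32 untreated in KO lines. In WT lines it was 9.12, 8.89 and 8.37 with LPS and 9.44, 9.55 and 9.29 untreated. It fell by 0.63 in WT lines (SE 0.17, adjusted p = 0.0197), and the difference in KO lines was -0.30 with 3 of 3 lines lower. Without WT13 no Hox gene was called in WT lines, and without only the WT13 LPS array Hoxb2 had a log2 difference of -0.42 (adjusted p = 0.0554). Hoxb2 also lost its call without WT7 (adjusted p = 0.0748 in limma) and with only the arrays compared (0.0507).

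Pairing the 2 arrays of a line raised the counts. With line as a fixed block 6 of the 26 Hox genes were called in WT lines (background 27.1%) and 2 in KO lines (background 17.4%). Hoxd10 then fell by 0.54 in KO lines (SE 0.11, adjusted p = 0.0105) and by 0.41 in WT lines (SE 0.11, adjusted p = 0.0263), and it was lower with LPS in 6 of 6 lines. Hoxd13 fell by 0.66 in WT lines with the block (SE 0.13, adjusted p = 0.00616), against adjusted p = 0.0527 without it. WT13 with LPS was below detection, so the size is not well fixed. Over 12 alternatives, the block among them, the difference ran between -0.84 and -0.21, and 3 called it. Hoxc13, not well above background on any WT LPS array, was at least 1.17-fold lower there (adjusted p = 0.0443 with the block).

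A second probe did not always give the same call. The tested probe of Hoxb7 had a log2 difference of 0.08 with LPS in WT lines (adjusted p = 0.562), and the other probe, also on all 12 arrays, 0.54 (adjusted p = 0.014). For Hoxa9 the tested probe had -0.35 (adjusted p = 0.188) and the other -0.45 (adjusted p = 0.0195).

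**Figure D5:**
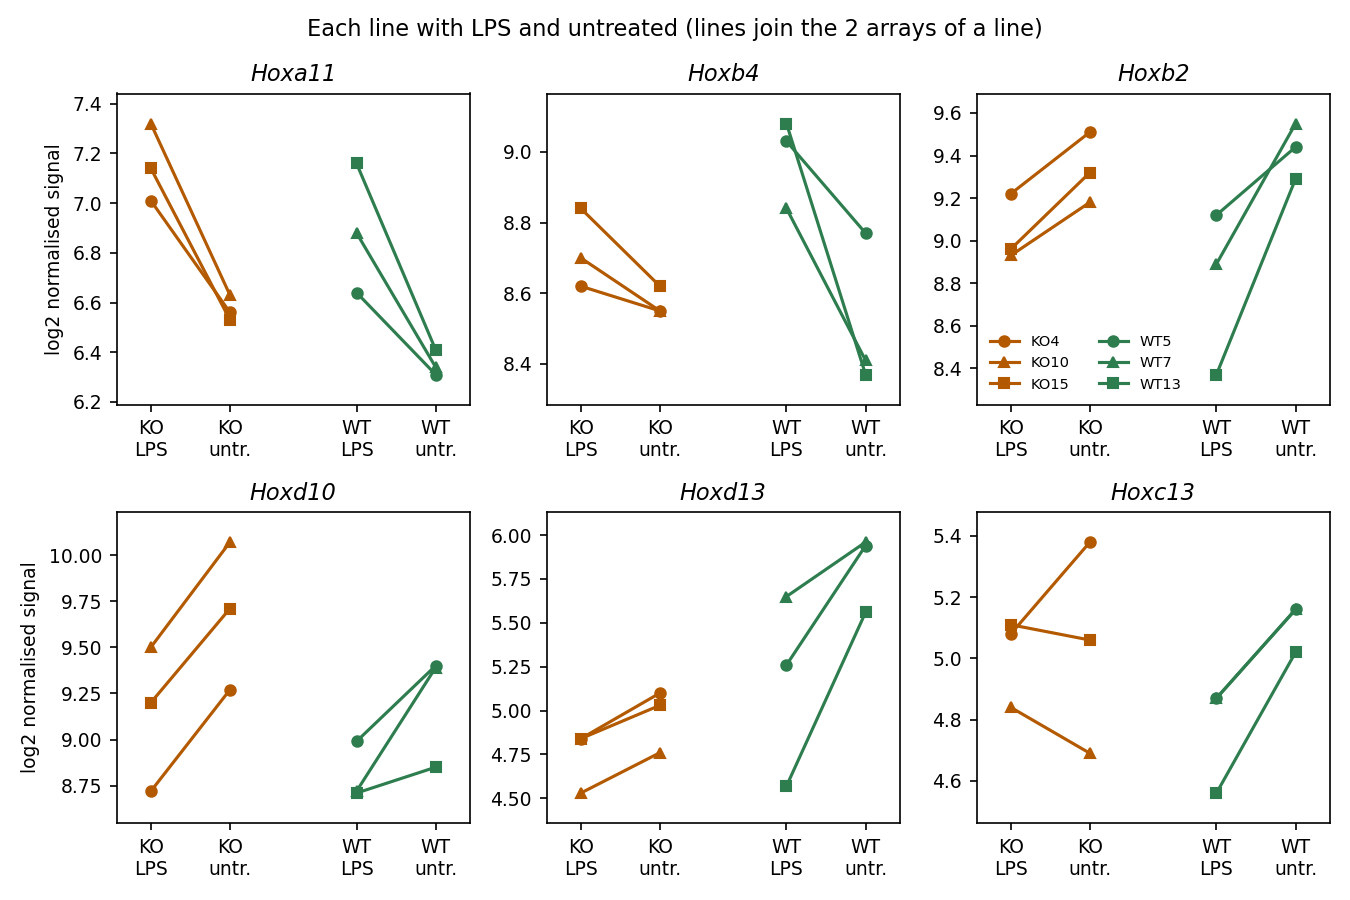
Normalised log2 signal of 6 Hox genes in each line with LPS and untreated, each line's 2 arrays joined, for KO lines (orange) and WT lines (green). Hoxa11 is higher with LPS in all 6 lines, and Hoxb2 and Hoxd10 are lower with LPS in all 6. Hoxd13 also reads lower in all 6, but it was detected on no KO LPS array and on neither KO10 array.

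The change with LPS was not shown to differ between genotypes for any Hox gene. In the test of the difference of the LPS changes, KO minus WT, no Hox gene was called (limma; background 0%), and none had an unadjusted p under 0.05, against 3.54% of all genes. Hoxb2 had 0.33 and Hoxb4 -0.32 on the log2 scale. No size is given for Hoxa2, Hoxd13 and Hoxc13, which were not well above background on any LPS array of 1 genotype.

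Of the genes that work with Hox proteins, cofactors were broadly detected. Of 8 cofactors of the Pbx, Meis and Pknox families with a probe, 7 were detected on all 12 arrays and all 8 were tested. None was called between genotypes or among lines, and 1 was called with LPS: Pbx3, a DNA binding partner of Hox proteins, fell by 0.62 in WT lines (SE 0.17, adjusted p = 0.0234), or by 0.31 with no background correction. That is 1 of 8, against 22.8% of all genes. Of the 6 Cdx and ParaHox genes, relatives of Hox genes of which Cdx1, Cdx2 and Cdx4 act upstream of Hox genes in the embryo, 5 were detected on no array, and Cdx1 on 4 without a call.

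Of 13 cluster neighbours with a probe, 10 were tested and 1 was called, Snx10, which rose by 0.77 with LPS in WT lines (SE 0.18, adjusted p = 0.0113; 22.8% of all genes were called there). The neighbours Evx2, next to Hoxd13, and Hottip, next to Hoxa13, were detected on no array, and the neighbour Evx1 on 4.

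Polycomb and Trithorax proteins keep Hox genes silent and active. Of 22 Polycomb genes tested, none was called between genotypes or among lines. With LPS 4 were called in KO lines (2 higher, 2 lower), against 14.7% of all genes, and 7 in WT lines (2 higher, 5 lower), against 22.8%. Eed, the core subunit of the H3K27 methyltransferase, rose by 0.73 in WT lines (adjusted p = 0.00448), and Rnf2, the H2A ubiquitin ligase, rose by 0.52 in KO lines (adjusted p = 0.0354) and by 0.65 in WT lines (adjusted p = 0.00878). With no background correction Rnf2 had 0.18 in KO lines (adjusted p = 0.0636) and 0.23 in WT lines (adjusted p = 0.0192). Rbbp7 fell by 0.72 in WT lines (adjusted p = 0.013), and Bmi1 fell by 0.39 in KO lines (adjusted p = 0.0382), or by 0.22 with no background correction. Of 10 Trithorax and demethylase genes tested, 1 was called, Wdr5, which rose by 0.30 with LPS in WT lines (adjusted p = 0.0446), against 22.8% of all genes.

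Retinoic acid is a known inducer of Hox genes. Of 11 retinoic acid genes tested, none was called between genotypes and 3 were called among lines, against 1.56% of all genes. Crabp1, a binding protein, had line means of 4.99, 5.5 and 5.95 in KO lines and 5.23, 5.24 and 6.35 in WT lines (F = 32.0, adjusted p = 0.00738). Rarb, a receptor, had 6.75, 7.25 and 7.52 in KO lines and 7.41, 7.15 and 6.63 in WT lines (adjusted p = 0.0383), and Aldh1a3, a synthesis enzyme, 5.80, 5.35 and 5.69 in KO lines and 6.24, 5.74 and 5.38 in WT lines (adjusted p = 0.0375). The order of the KO lines in Rarb and Crabp1 had KO15 highest, unlike Hoxd3 to Hoxd10. With LPS 2 of the 11 were called in KO lines, against 14.7% of all genes. Crabp2 fell by 0.83 there, or by 0.26 with no background correction. Dhrs3, not well above background on any KO LPS array, was at least 1.11-fold lower with LPS (adjusted p = 0.0389), a call lost with no background correction (adjusted p = 0.114). In WT lines 1 was called, Rxrb, which fell by 0.56, against 22.8% of all genes.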

How the data were processed

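Signals were mean bead intensity per probe with a detection p-value, as deposited by the authors, not normalized and with no background subtracted per the file headers and values; the submitters' processing notes name BeadStudio. The authors' processed value table (linear intensity, arrays with nearly equal medians of 122.4 to 122.5, not centred) was used as an alternative; it ranked probes as the scanner signals did. Genes were named from the platform annotation (34885 probes with 1 symbol, 18 with several and 10378 with none). Signals were background corrected by normexp on detection p-values, offset 16, quantile normalized and put on the log2 scale (neqc, limma 3.58.1, R 4.3.3). A probe was kept if its detection p was under 0.05 on at least 3 arrays, and each gene was represented by its brightest kept probe. One linear model with 4 groups gave the comparisons of genotype and LPS, line means were compared between genotypes, and an F test compared lines within genotypes. All p-values were Benjamini-Hochberg adjusted over 11060 genes, at a threshold of 0.05, and the fits were tested on simulated data. For "at least" folds, the dim group took on each array its own value or the lowest signal called detected, whichever was higher.

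Per the labels each line gave both arrays, so lines pair the samples: deviations from group means correlated at 0.137 to 0.52 within each of the 6 lines, and each line matched itself best. Alternatives were the scaling, the background correction, the authors' values, the detection filter, the mean of probes, the arrays in the fit, line as a block, each line left out and, for detection, a p under 0.01. Named genes were all members, up to 4 called genes of each list per comparison, and the 5 genes most like the Hox gene with the smallest p among lines. Members and lists were chosen with earlier results of these data known.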

Additional observations from a re-analysis of the deposited data

How the results depend on the processing

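No Hox gene was called between genotypes, or in the difference of the LPS changes, under any alternative run. Of 86 repeats on the Hox genes called with LPS or among lines, 65 kept the call and 21 lost it, and none of those with LPS changed sign. Differences that were not called had less fixed signs: between genotypes 12 of 26 Hox genes untreated and 11 with LPS took both signs over the alternatives. Hox genes called with LPS in WT lines numbered 3, against 1 with only the arrays compared, 6 with line as a fixed replicate block and 0 to 3 with a line left out (lowest without WT13). In KO lines they numbered 1, against 2 with the fixed replicate block and 0 to 1 with a line left out (0 without KO10 or KO15). A random replicate block called 4 in WT lines, and the blocks changed no other count of Hox genes called. Hox genes called among lines numbered 3, against 5 with no background correction, with the authors' processed values, with the mean of kept probes and without the WT13 LPS array (the last chosen after seeing the data), 1 with no detection filter, and 0 to 6 with a line left out. Those at an unadjusted p under 0.05 numbered 7 to 16 with a line left out. At a detection p under 0.01, 12 Hox genes were detected on no array in place of 7.

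Over all genes, KO against WT untreated gave 20 calls, against 3 with only the arrays compared and 3 to 38 with a line left out. With LPS it gave 36, against 20 under 75th percentile scaling, 17 with no detection filter, 7 with only the arrays compared, 15 without the WT13 LPS array and 5 to 33 with a line left out. Line means gave 14, against 3 with no background correction or the authors' values, 5 with no detection filter, 8 with the mean of kept probes and 3 to 49 with a line left out. LPS gave 2526 calls in WT lines and 1622 in KO lines, with 1097 to 2122 and 545 to 925 with a line left out. The difference of the LPS changes gave 0, against 1 with a random replicate block and 0 to 1 with a line left out. Differences among lines gave 172, against 104 with no detection filter and 57 to 184 with a line left out. The causes were not tested. Dim members (Hoxd11, Hoxd13, Hoxc13, Hoxa2, Hoxa10 and Hoxd3) lie near background, where signal limits their values.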

Other observations

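Positional transcription factors were looked at beside the Hox genes. Most mark other organs and body regions, but the list also holds factors of gut mesenchyme, such as Nkx2-3 and Foxl1. Of 21 with a probe, 12 were tested, 5 were detected on no array (Tbx4, Tbx5, Tbx15, Gata4 and Foxl1), and none was called between genotypes. Among lines 3 were called, against 1.56% of all genes. Isl1, a factor of heart, hindlimb and genital mesenchyme, had line means of 5.69, 4.69 and 6.31 in KO4, KO10 and KO15 and 6.31, 6.78 and 8.31 in WT5, WT7 and WT13 (F = 77.1, adjusted p = 0.000663 in limma). En1, an ectoderm and midbrain factor that also marks a fibroblast lineage of the back skin, had 7.23, 7.75 and 8.18 in KO lines and 7.90, 7.77 and 8.69 in WT lines (adjusted p = 0.0232), and Nkx3-2 6.47, 5.78 and 5.56 in KO lines and 5.42, 5.81 and 5.53 in WT lines (adjusted p = 0.0449). KO10, the KO line highest in Hoxd3 to Hoxd10, was thus the line lowest in Isl1, whose signal there was below the lowest called detected.

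With LPS 4 of these 12 were called in KO lines, against 14.7% of all genes, and 5 in WT lines, against 22.8%. Tcf21, a mesenchymal factor, fell by 1.64 in KO lines and by 1.33 in WT lines, and Nkx2-3, a gut mesenchyme factor, fell by 0.74 in KO lines and by 0.71 in WT lines. Tbx18 rose by 0.93 in KO lines and by 1.05 in WT lines, Tbx3 rose by 0.78 in KO lines, and in WT lines En1 rose by 1.32 and Satb1 fell by 0.51 (adjusted p-values of 0.00528 to 0.0468 in limma). With no background correction Tcf21 fell by 0.87 in KO lines and by 0.61 in WT lines, and Tbx18 rose by 0.41 in KO lines and by 0.46 in WT lines. The slide changed with LPS here too, and its part cannot be told apart.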
